A study of Mus musculus with 6 samples.

Results

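The levels of 10 genes of the endoplasmic reticulum (ER) were compared between libraries of neonatal mouse leukemia treated with CCL5 and control libraries. They were chosen by name: Hspa5, Hsp90b1, Calr, Pdia4, Dnajb9, Sdf2l1, Manf, Creld2, Herpud1 and Xbp1. All 10 were found among the 23337 genes of the count table, and all 10 were among the 12174 genes that passed the filter on low counts. The series title names the leukemia as MLL-rearranged, and its label is primary neonatal murine leukemia. Polyadenylated RNA was sequenced from 6 libraries, 3 labelled ccl5 and 3 labelled control. The ccl5 libraries were treated with the chemokine CCL5. The dose and time are not given in the sources used here. By their labels ccl5 replicate 1 was a tertiary transplant of a leukemia called neo30, ccl5 replicates 2 and 3 and control replicate 3 were primary transplants called neo10, and control replicates 1 and 2 have no transplant stage. Whether libraries stem from different mice or dishes is not in the labels, so p-values measure only the spread between these libraries.

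Proteins bound for the cell surface, the lysosome or secretion fold inside the ER. Hspa5 (BiP), Hsp90b1 (GRP94) and Calr (calreticulin) are its abundant chaperones, and Pdia4 forms and rearranges disulfide bonds. When unfolded proteins accumulate, the sensors Ern1 (IRE1), Eif2ak3 (PERK) and Atf6 start the unfolded protein response, in which the transcription factors XBP1, ATF6 and ATF4 raise chaperone, degradation and stress genes. ATF6 and XBP1 are known to act through a promoter sequence called the ER stress response element.

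The promoters of the members were searched for elements of the unfolded protein response. The members were chosen by name as known ER chaperone and stress genes, so their share of matches describes them and is no independent test. The ER stress response element (ERSE) was searched on both strands as CCAAT, then 9 bases of any letter, then CCACG. Its second form (ERSE-II) was searched as ATTGG, 1 base of any letter and CCACG. The window ran from 250 bases before to 50 bases after the start site (RefSeq, GRCm38.p6, the same assembly as mm10). Promoters were found for 9 of the 10 members; that of Manf was not among them. An exact element stood in the promoters of Hspa5, Hsp90b1, Calr and Creld2, which is 44.4% of the 9, against 0.137% of the 27025 genes with a promoter sequence. The second form stood in Herpud1 alone among the 9, and in 0.0444% of all genes. No exact match lay in the windows of Xbp1, Dnajb9, Sdf2l1 and Pdia4. The matches are printed because they show where 5 of the 9 promoters hold either form. Each is given with 10 flanking bases on the strand that reads as the element, and capitals mark the fixed letters.

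Hspa5 (chr2:34772015-34772053, plus strand): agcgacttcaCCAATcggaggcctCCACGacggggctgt
Hsp90b1, farther match (chr10:86705628-86705666, minus strand): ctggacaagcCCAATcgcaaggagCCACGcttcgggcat
Hsp90b1, nearer match (chr10:86705523-86705561, plus strand): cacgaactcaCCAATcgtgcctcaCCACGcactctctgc
Calr (chr8:84847065-84847103, plus strand): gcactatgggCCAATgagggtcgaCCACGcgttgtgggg
Creld2 (chr15:88819510-88819548, minus strand): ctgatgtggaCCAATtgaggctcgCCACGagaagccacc
Herpud1, second form (chr8:94386367-94386397, plus strand): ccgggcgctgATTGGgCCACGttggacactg

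The match in Hspa5 ended 47 bases before its start site, and Hsp90b1 held a pair of matches, which ended 194 and 89 bases before its start site. The matches lay 144 to 162 bases upstream in Calr, 108 to 126 in Creld2 and 42 to 52 in Herpud1. The start site in the count table lay 71 bases from the RefSeq one for Herpud1 and 326 bases from it for Xbp1, outside the window searched for Xbp1. The elements of Calr and Creld2 and the nearer one of Hsp90b1 read on the strand opposite to the gene. The 250 bases before the start of Hspa5 are shown whole, with the fixed letters of the exact match in capitals, because Hspa5 is the standard readout of this pathway.

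Hspa5 (chr2:34771840-34772089, plus strand): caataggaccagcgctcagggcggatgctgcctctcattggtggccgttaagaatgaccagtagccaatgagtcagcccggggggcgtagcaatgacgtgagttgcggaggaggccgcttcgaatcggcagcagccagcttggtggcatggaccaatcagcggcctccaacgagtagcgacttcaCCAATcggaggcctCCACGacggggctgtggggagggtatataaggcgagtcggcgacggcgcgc

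Among the related ER lists described further on, 8 of the 141 genes with a promoter held either form (5.67%, against 0.181% of all genes). These included Canx, Pdia6, Dnajc3, Dnajb11 and Syvn1. A shorter element bound by XBP1, TGACGTGG, and an ATF4 element, TGATGNAAT, were found in 0 of the 9 member promoters, against 0.714% and 1.08% of all genes. A match is a string of letters and was not shown to be a bound site.

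**Figure D1:**
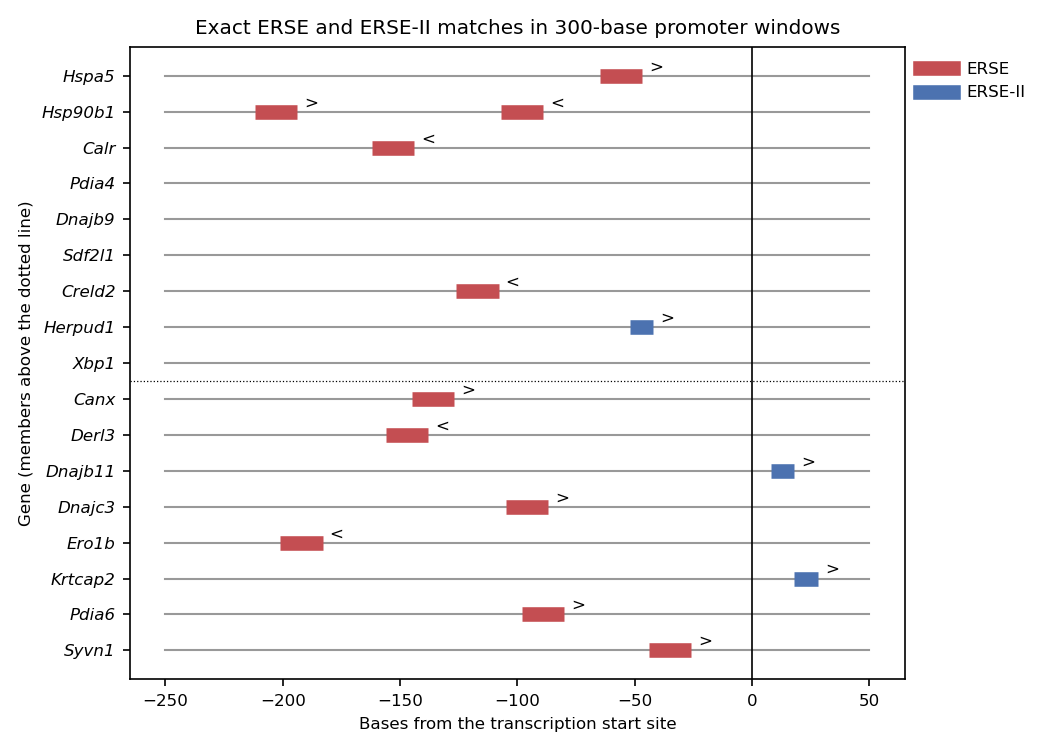
Positions of exact ERSE (red) and ERSE-II (blue) matches in bases from the transcription start site, for the 9 members with a promoter (above the dotted line) and the 8 related genes that hold a match. The signs > and < mark a match on the same and on the opposite strand as the gene; Hsp90b1 is the member with a pair of matches.

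Library totals ran from 13421100 to 16613837 counts with CCL5 and from 15507823 to 18445095 in controls. CPM here are library-scaled counts (counts divided by library size), corrected by TMM for differences in composition. The libraries formed 3 closely alike pairs across the labels. Log2 CPM of all tested genes correlated at 0.993 between ccl5 replicates 1 and 3, at 0.995 between control replicates 1 and 2, and at 0.995 between ccl5 replicate 2 and control replicate 3. All other pairs lay between 0.826 and 0.887. Counts differed by more than sampling noise in every pair (chi-square of at least 3.55 per degree of freedom), so no library was dropped as a copy. The 3 alike pairs stood at 7.27, 3.55 and 4.48, in the order above, and all other pairs at 208 to 491. This value cannot tell separate preparations of the same RNA or mouse from separate mice. Whether the alike libraries are independent replicates was not tested. The primary transplant label of ccl5 replicate 3 thus went against its likeness to the tertiary transplant, and neither of these libraries had a Y-linked read, against 5103 to 7777 in the others. Whether labels or samples were exchanged was not tested, and every value of ccl5 over control takes the labels as given. For many genes whose ccl5 values stand apart in replicates 1 and 3, the fit to the 4 libraries with Y-linked reads is given as well. That fit sets ccl5 replicate 2 alone against the controls, among which control replicate 3 is its close match. Genes of the myeloid label check were present throughout, with Itgam at 431 to 773 CPM. Ptprc, a gene of leukocytes in general, stood at 522 to 783 CPM. Other genes of the check varied more, such as Csf1r (77.6 to 406 CPM), Cebpa (82.6 to 329) and Lyz2 (3024 to 17581). Summed markers of other cells reached at most 2.02 CPM for erythroid cells, 2.64 for T and NK cells and 17.0 for B cells. Stromal and endothelial markers summed to 27.7 to 86.3 CPM with CCL5 and 86.7 to 99.3 in controls, mostly Pecam1. In bulk RNA, fewer cells of a type and less RNA per cell cannot be told apart.

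The 3 abundant chaperones stood near the top of the leukemia transcriptome. Per kilobase of exon, Hsp90b1 averaged 314 CPM over the 6 libraries (range 266 to 363), Hspa5 283 (218 to 331) and Calr 256 (206 to 327). The 3 ranges overlap, and each gene exceeded 97.8% to 98.1% of tested genes on this scale. Xbp1 followed at 129 CPM per kilobase (104 to 169), below every chaperone value and above every value of the genes after it. Manf (65.6), Sdf2l1 (61.7) and Pdia4 (48.0) came next with overlapping ranges, then Creld2 (29.8), Herpud1 (26.2) and Dnajb9 (15.5), whose neighbours also overlapped. The 10 genes together summed to 2748, 2742 and 2750 CPM with CCL5, against 2873, 2966 and 2648 CPM in controls. Hspa5, Hsp90b1 and Calr supplied 70.7% to 79.1% of that sum in every library. Before TMM scaling the share of all counts held by the 10 genes was 0.232%, 0.324% and 0.225% with CCL5 and 0.292%, 0.302% and 0.310% in controls. The 10 most abundant genes of the library took 21.0%, 5.38% and 21.6% of counts with CCL5, and as little as 5.59% in controls (replicate 3), so scaling bears on every level given here.

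The ER genes showed no common direction between ccl5 and control libraries. They split evenly: 5 had a fold change above 0 and 5 below it, and their median log2 fold change was -0.02, against -0.01 for all tested genes. None of the 10 passed an adjusted p of 0.05 in edgeR's quasi-likelihood test, and 0 of all 12174 genes passed (0% called). At an unadjusted p under 0.05 there was 1 member, Calr, which was higher, against 13.7% of all tested genes (8.99% higher and 4.67% lower). DESeq2's Wald test also called 0 members, against 1.64% of its tested genes. The groups did not overlap for 3 members (Calr higher, Hsp90b1 and Manf lower), against 15.8% of all tested genes, 8.27% higher and 7.49% lower. With DESeq2 size factors these 3 were apart as well, against 8.39% of genes higher and 7.39% lower.

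**Figure D2:**
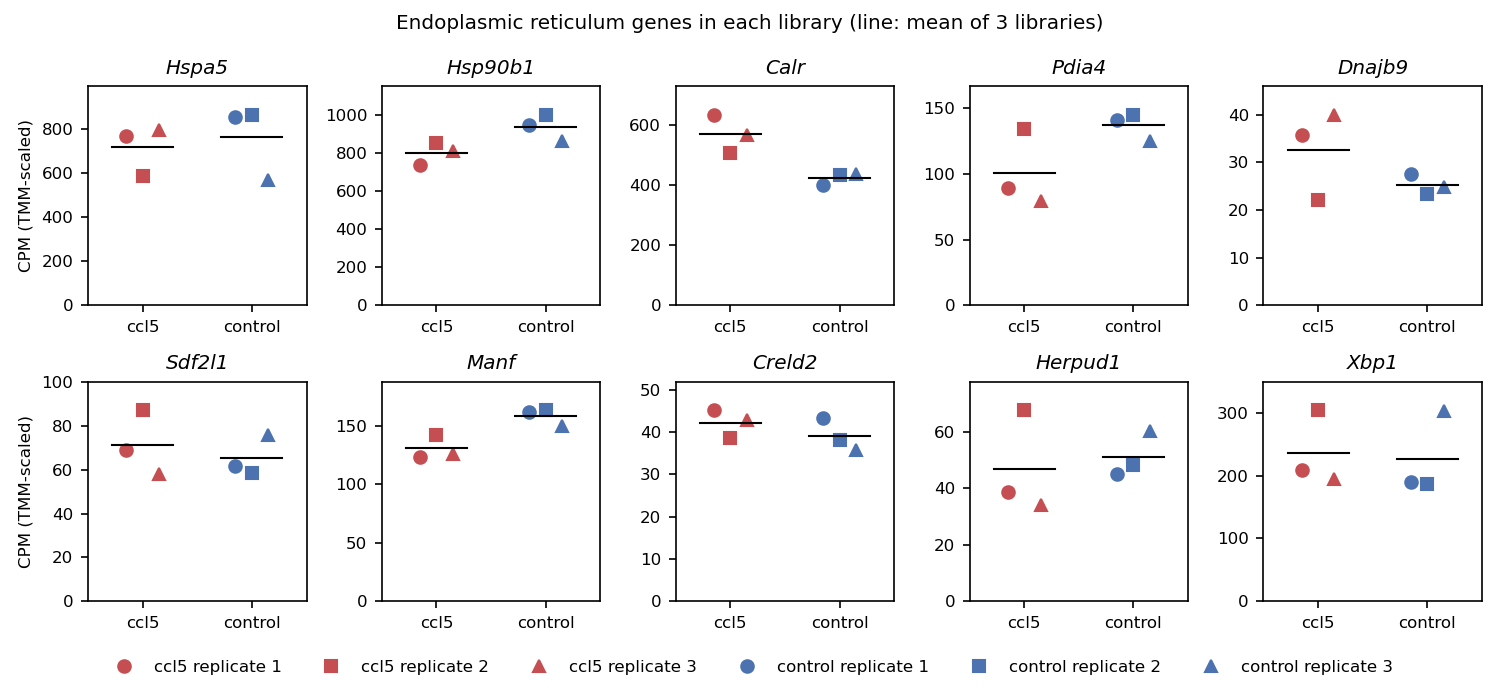
TMM-scaled CPM of each ER gene (y axes start at 0) in ccl5 libraries (red, left) and control libraries (blue, right), with a line at the mean of 3 libraries. Calr lies higher in every ccl5 library (507 to 635 CPM) than in every control (401 to 438 CPM), while Hspa5, Xbp1 and Herpud1 overlap, with ccl5 replicate 2 beside control replicate 3.

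Hspa5, the Hsp70 chaperone that also holds the stress sensors inactive (chromosome 2, 34772090 to 34776529, mm10), measured 768, 588 and 797 CPM with CCL5 (replicates 1 to 3, in this order throughout), against 856, 866 and 571 CPM in controls. The lowest values of both groups stood side by side, in ccl5 replicate 2 and control replicate 3, and the groups overlapped. Its log2 fold change was -0.09 (SE 0.25, 95% interval -0.69 to 0.51, adjusted p = 0.881 in edgeR). The sign turned with primary transplants only (0.26), without ccl5 replicate 2 (0.04) and without control replicate 2 (0.01).

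Hsp90b1, the ER member of the Hsp90 family (chromosome 10, 86690841 to 86705444), measured 734, 849 and 810 CPM with CCL5, against 945, 1000.5 and 863 CPM in controls. Every ccl5 library lay below every control, the nearest values being 849 in ccl5 replicate 2 and 863 in control replicate 3. The log2 fold change was -0.23 (SE 0.17, adjusted p = 0.559 in edgeR), and -0.14 among libraries with Y-linked reads.

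Calr, the calcium-binding lectin chaperone of glycoproteins (chromosome 8, 84842088 to 84846931), measured 635, 507 and 568 CPM with CCL5, against 401, 435 and 438 CPM in controls. It was higher in every ccl5 library, also in ccl5 replicate 2 (507) against its close match, control replicate 3 (438). Its log2 fold change of 0.43 (SE 0.17, 95% interval 0.01 to 0.84) had the smallest p of the members, with an adjusted p of 0.365 in edgeR's test. Over the 14 alternatives the log2 fold change of Calr lay between 0.23 (total counts) and 0.54 (limma-voom), and it was 0.25 among libraries with Y-linked reads.

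Pdia4, a protein disulfide isomerase (chromosome 6, 47796141 to 47813512), measured 89.4, 134 and 79.1 CPM with CCL5, against 141, 145 and 125 CPM in controls. Its low values were those of ccl5 replicates 1 and 3, and ccl5 replicate 2 lay within the controls. Pdia4 had the most negative fold change of the members (log2 -0.44, SE 0.24, adjusted p = 0.432 in edgeR). Among libraries with Y-linked reads it was -0.03. An exon of Pdia4 overlaps Mir704 on the same strand by 14 bases, the sole overlap of member exons with another gene of the table.

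Dnajb9 and Sdf2l1 encode helpers of BiP. Dnajb9 (ERdj4; chromosome 12, 44205897 to 44210068) measured 35.7, 22.1 and 40.0 CPM with CCL5, against 27.6, 23.3 and 24.9 CPM in controls. Its high values were those of ccl5 replicates 1 and 3, while ccl5 replicate 2 had the lowest level of all 6 libraries. The log2 fold change was 0.37 (SE 0.26) and turned to -0.20 among libraries with Y-linked reads. Sdf2l1 (chromosome 16, 17130138 to 17132383) measured 69.2, 87.2 and 58.1 CPM against 61.8, 58.4 and 75.7 CPM. The groups overlapped, and the highest value of each was again in ccl5 replicate 2 and in control replicate 3 (log2 fold change 0.13, SE 0.21).

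Manf and Creld2 encode small ER proteins that are induced and released under ER stress. Manf (chromosome 9, 106887415 to 106891938) measured 124, 142 and 126 CPM with CCL5, against 162, 163 and 150 CPM in controls. All ccl5 libraries lay below all controls, with ccl5 replicate 2 closest to them, and the log2 fold change was -0.28 (SE 0.14, adjusted p = 0.407 in edgeR), against -0.16 among libraries with Y-linked reads. Manf ran nearly parallel to Hsp90b1: after subtracting each gene's mean, their log2 CPM differed by 0.05 (root mean square over 6 libraries), the smallest value among the members' pairs. Creld2 (chromosome 15, 88819646 to 88826681) was the steadiest member, at 45.2, 38.6 and 42.8 CPM against 43.4, 38.2 and 35.9 CPM. Its highest value was 1.26 times its lowest, a ratio that 94.3% of tested genes exceeded.

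Herpud1, a membrane protein of the complex that returns misfolded proteins to the cytosol (chromosome 8, 94386500 to 94395358), measured 38.7, 67.6 and 34.2 CPM with CCL5, against 45.2, 48.1 and 60.3 CPM in controls. Both the highest and the lowest library were ccl5 libraries, a ratio of 1.98 and the widest of the 10 genes; 52.2% of tested genes had a wider one. The log2 fold change was -0.13 (SE 0.30), and 0.40 among libraries with Y-linked reads.

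Xbp1, the transcription factor whose mRNA is cut by IRE1 to give the active form (chromosome 11, 5520967 to 5525872), measured 209, 305 and 195 CPM with CCL5, against 190, 188 and 304 CPM in controls. One library of each group, ccl5 replicate 2 and control replicate 3, stood at 305 and 304 CPM, and the other libraries lay between 188 and 209. The log2 fold change was 0.06 (SE 0.29, 95% interval -0.64 to 0.76), turning to -0.29 with primary transplants only. Counts per gene do not separate spliced from unspliced Xbp1, so its activity was not measured. Xbp1 supports secretory cells, and plasma cell markers were measured beside it. Of 8 such markers 6 were in the table, and their summed CPM was 76.3, 18.1 and 75.1 with CCL5, against 36.1, 30.3 and 17.1 in controls. The sum was lowest in ccl5 replicate 2 and control replicate 3, where Xbp1 was highest. Most of it was Sdc1, at 65.5, 10.02 and 65.9 CPM against 28.6, 22.6 and 10.7 CPM. Tnfrsf17 had 0 counts in every library. The immunoglobulin joining chain gene Igj ran the other way from the sum, with 9, 80 and 5 counts against 2, 3 and 78. Mitotic genes were high in the same libraries as Xbp1, with summed CPM of 15 genes at 313, 2708 and 219 with CCL5 and 1064, 1129 and 2614 in controls. Their part in the Xbp1, Herpud1 and Sdf2l1 levels was not tested.

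**Figure D3:**
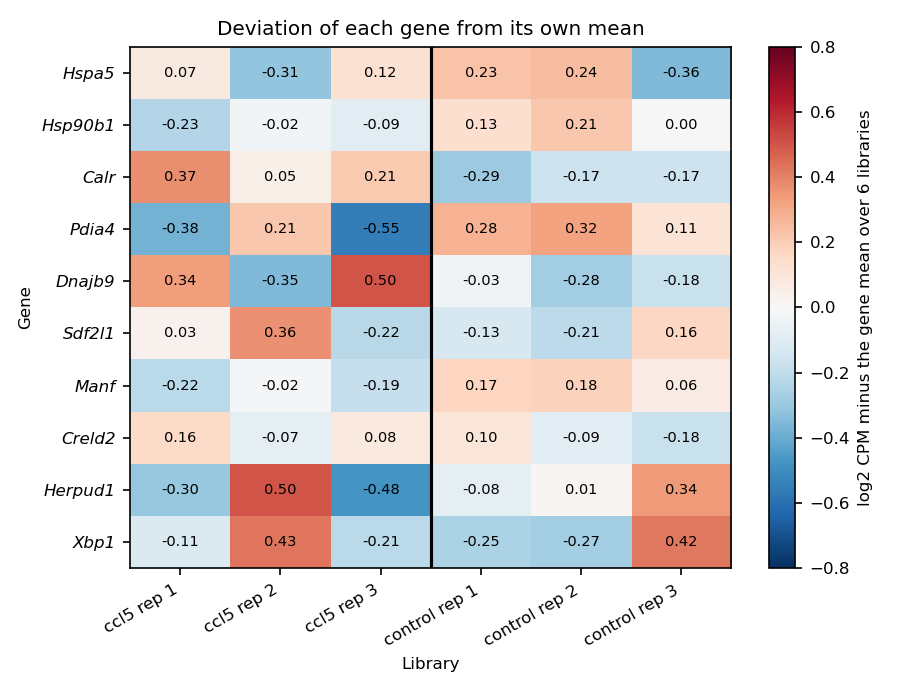
Log2 CPM of each member minus its mean over the 6 libraries (colour and printed value; libraries on the x axis, ccl5 left of the line). Xbp1, Herpud1 and Sdf2l1 are high and Hspa5 low in both ccl5 replicate 2 and control replicate 3, whereas Calr, Hsp90b1 and Manf split by label.

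The members differed in profile. The most unlike pair was Dnajb9 and Pdia4, at 0.64 (root mean square log2 difference over 6 libraries), followed by Dnajb9 and Herpud1 at 0.64. After Manf with Hsp90b1, the closest pair was Xbp1 with Sdf2l1, at 0.14. Compared with all tested genes the members varied little: their highest level was 1.26 to 1.98 times their lowest over the 6 libraries, with a median of 1.55 against 2.04 for all tested genes. The members averaged 4.86 to 9.76 log2 CPM, and the tested genes include ones of far lower level. Comparisons with all tested genes were not matched for level, and its part was not tested. A narrow range was not particular to the members. The median was 1.40 for translocation, 1.46 for glycosylation and 1.51 for ER to Golgi transport, and 1.61 to 5.16 in the other related lists. Among 5800 other genes of log2 CPM at least 5, the gene nearest to Hspa5 was Pdia6, a disulfide isomerase, at a difference of 0.03. Pdia6 measured 428, 320 and 447 CPM with CCL5, against 472, 458 and 320 CPM in controls. Tfg and Cul2 came next, both at 0.04. The mean profile of the 10 members was nearly flat, and the 5 genes nearest to it were Ipo9, Zcchc6, Ewsr1, Med1 and Ctbp2, at differences of 0.02 to 0.04.

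The members' counts rested on single libraries and on the scaling. Without ccl5 replicate 2, edgeR called 3 members, Dnajb9 higher (log2 fold change 0.59, adjusted p = 0.0356), Calr higher (0.51, adjusted p = 0.0453) and Pdia4 lower (-0.70, adjusted p = 0.0214), against 26.2% of all genes. That fit sets the alike ccl5 replicates 1 and 3 against the controls. Without control replicate 3 it called 0 members, against 1.88% of all genes. limma-voom with sample quality weights called 6 members, 2 higher (Dnajb9, Calr) and 4 lower (Herpud1, Pdia4, Hsp90b1, Manf), against 66.5% of all genes. Scaling by total counts, without TMM, moved the median log2 fold change of all genes by -0.16. With it 2 of the 10 members had a fold change above 0, Dnajb9 at 0.14 and Calr at 0.23, and the groups overlapped for all 10, including Calr, Hsp90b1 and Manf, against 14.5% of all genes apart. Relative to the median of all genes, the member median was close to 0 under both scalings (-0.16 for members and -0.17 for all genes with total counts).

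**Figure D4:**
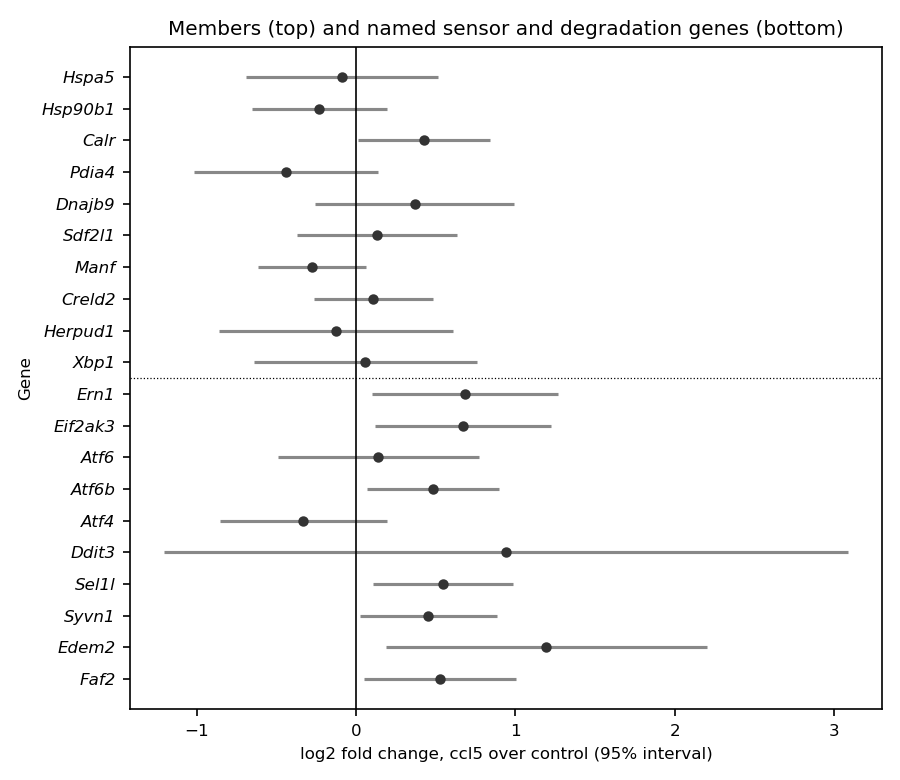
Log2 fold change of ccl5 over control (points) with 95% intervals (bars) for the 10 members above the dotted line and 10 named sensor, transcription factor and degradation genes below it. Among members the interval of Calr alone lies above 0; Ern1, Eif2ak3, Atf6b, Sel1l, Syvn1, Edem2 and Faf2 also lie above 0, and no gene passed after adjustment.

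The stress sensors and their transcription factors were measured as a separate list of 12 genes. Like the other related lists, it was chosen with earlier results of these data known. The shares of these lists are thus no independent test. None passed the adjusted test; 11 had a fold change above 0 and 1 below, with a median log2 fold change of 0.44 against -0.01 for all tested genes. Their groups did not overlap in 3 genes, all higher with CCL5 (25% of the list, against 8.27% of all genes). With total counts 2 were apart, both higher, against 5.45% of all genes. Ern1 measured 106, 60.3 and 92.4 CPM with CCL5, against 50.5, 51.0 and 59.7 CPM in controls (a log2 fold change of 0.68, SE 0.24). Eif2ak3 measured 43.4, 29.1 and 39.6 CPM against 23.7, 19.6 and 27.2 CPM (0.67, SE 0.23). Atf6b, a relative of Atf6, measured 94.9, 69.5 and 71.7 CPM against 57.3, 55.8 and 55.9 CPM (0.48, SE 0.17). In all 3 genes ccl5 replicate 2 was the lowest ccl5 library, and for Ern1 it lay within 1 CPM of control replicate 3. The adjusted p of all 3 was 0.365 in edgeR, and among libraries with Y-linked reads the log2 fold changes were 0.16 for Ern1, 0.31 for Eif2ak3 and 0.30 for Atf6b. Atf6 itself overlapped, at 148, 89.2 and 142 CPM against 127, 127 and 91.0 CPM. Among libraries with Y-linked reads, where ccl5 replicate 2 stands alone, the list's median was -0.38, with 8 of 12 genes below 0. The positive median was thus not seen without ccl5 replicates 1 and 3. In ccl5 replicates 1 and 3, 9 macrophage markers summed to 7424 and 8168 CPM, against 1442 CPM in ccl5 replicate 2 and 1079 to 1493 CPM in controls. Most of the sum there was Ctss (4024 and 4800 CPM) and Cd68 (2032 and 1986 CPM). Vcam1 ran the other way, at 2.07, 325 and 1.73 CPM with CCL5, against 7.99, 8.05 and 339 CPM in controls. C1qa did not follow the sum either, at 9.05, 7.51 and 6.83 CPM against 0.0634, 0.107 and 6.77 CPM. The part of macrophage markers in the sensor levels was not tested.

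Atf4, the transcription factor translated under PERK signalling, measured 162, 155 and 167 CPM with CCL5, against 228, 234 and 149 CPM in controls (a log2 fold change of -0.33, SE 0.21). Ddit3 (CHOP), a stress factor downstream of ATF4, measured 64.0, 8.24 and 84.0 CPM against 38.7, 32.4 and 10.3 CPM, with the lowest value of each group in ccl5 replicate 2 and control replicate 3. Of 12 PERK and ATF4 stress targets 7 were above 0 and 5 below, and 0 passed the test. The groups were apart in 2, both lower (16.7%, against 7.49% of all genes lower and 8.27% higher). With total counts 3 were apart, all lower, against 9.08% of all genes. Chac1, a glutathione-degrading enzyme, measured 1.35, 3.97 and 1.18 CPM with CCL5, against 8.50, 5.92 and 4.02 CPM in controls. Its groups were barely apart, the nearest values being 3.97 in ccl5 replicate 2 and 4.02 in control replicate 3. Pmaip1 (NOXA), a death-promoting BCL2 relative, measured 62.4, 77.7 and 75.7 CPM against 306, 315 and 88.9 CPM. Atf3, a stress-induced transcription factor, measured 549, 30.5 and 605 CPM against 60.2, 58.6 and 34.9 CPM, so its groups overlapped. Among libraries with Y-linked reads the log2 fold changes were -0.75 for Atf3 and -1.72 for Ddit3. Trib3, an inhibitory target of CHOP, stayed under 13 CPM, at 9.05, 2.02 and 8.74 CPM with CCL5, against 12.7, 9.65 and 2.70 CPM in controls.

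**Figure D5:**
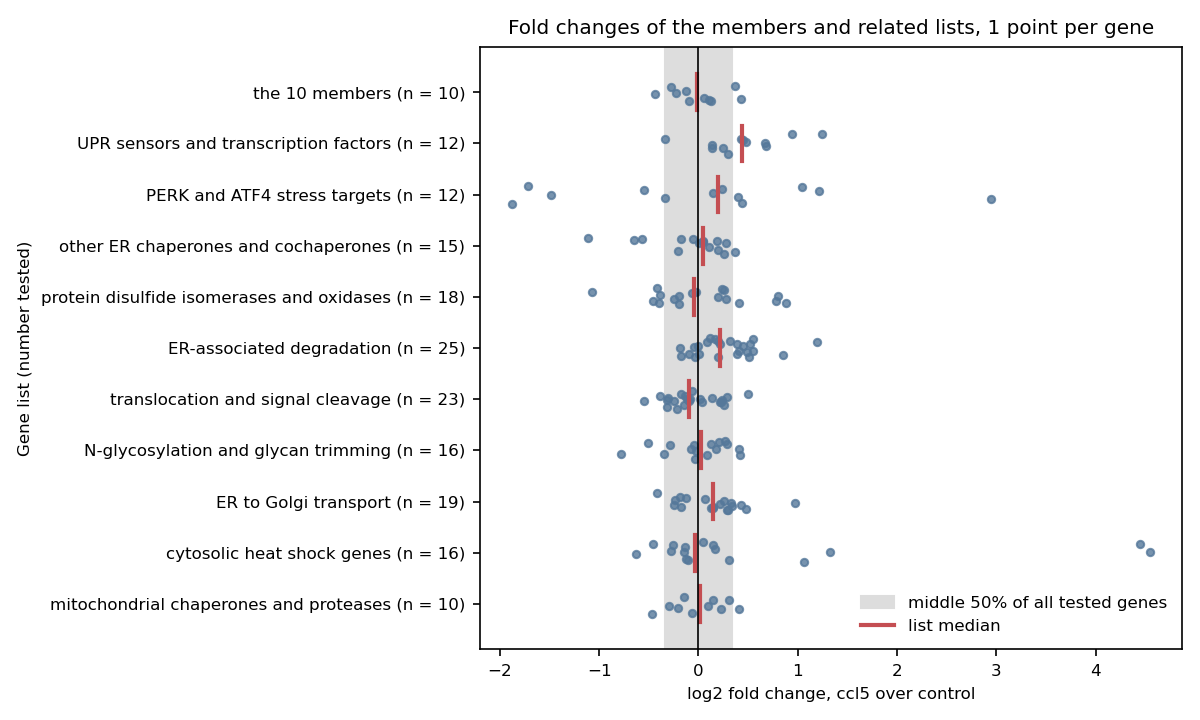
Log2 fold changes of ccl5 over control for every tested gene of the 10 members and of 10 related lists (1 point per gene; red line, list median; grey band, middle 50% of all tested genes). The medians run from -0.10 (translocation) to 0.44 (sensors), and no gene of any list passed the adjusted test.

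ER-associated degradation, the pathway that extracts misfolded proteins for the proteasome and to which Herpud1 belongs, had 19 of 25 tested genes above 0 and a median log2 fold change of 0.22. Groups were apart in 7 genes, all higher with CCL5 (28% against 8.27% of all genes), and 0 passed the adjusted test. With total-count scaling 3 were apart higher and 1 lower, against 5.45% and 9.08% of all genes. The list median was then 0.01, against -0.17 for all genes. With TMM it was 0.22, against -0.01. Sel1l, the scaffold of the degradation complex, measured 189, 149 and 173 CPM with CCL5, against 106, 108 and 137 CPM in controls (a log2 fold change of 0.55, SE 0.18). Syvn1, the ubiquitin ligase HRD1 that works with Sel1l, measured 48.8, 35.9 and 48.2 CPM against 32.3, 30.9 and 33.8 CPM (0.45, SE 0.18). Faf2, which recruits the extracting ATPase, measured 66.8, 45.8 and 68.7 CPM against 42.5, 41.2 and 42.3 CPM. Edem2, a mannosidase that marks glycoproteins for disposal, overlapped at 243, 81.2 and 222 CPM against 81.0, 76.3 and 81.4 CPM. Among libraries with Y-linked reads the log2 fold changes were 0.35 for Sel1l, 0.15 for Syvn1, 0.12 for Faf2 and 0.03 for Edem2. These genes were named by smallest p or as part of a fixed set. Herpud1 was not laid out like them: its 2 lowest values were in ccl5 replicates 1 and 3, where they were highest. It was not alone in the list. Ube2g2 (73.4, 111 and 73.1 CPM against 92.8, 81.2 and 116 CPM) also had its 2 lowest values there. So did Rnf5 (35.6, 42.7 and 33.9 CPM against 46.0, 42.2 and 39.5 CPM). Among libraries with Y-linked reads the degradation list's median was 0.004, with 14 of 25 genes above 0.

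Of 15 other ER chaperones tested, 9 were above 0, and 0 passed the adjusted test. Their log2 fold changes ran from -1.11 to 0.37 with a median of 0.04, and those of the members from -0.44 to 0.43. The groups of 1 gene, Dnajb11, were apart (6.67%, against 8.27% of all genes higher). With total counts 0 were apart higher and 1 lower, against 5.45% and 9.08% of all genes. Dnajb11 (ERdj3), a secreted helper of BiP, measured 122, 107 and 114 CPM with CCL5, against 97.0, 102 and 100.2 CPM in controls. Hyou1, a large Hsp70 relative of the ER, measured 207, 125 and 178 CPM against 145, 144 and 105 CPM, and the membrane lectin Canx measured 659, 588 and 710 CPM against 678, 688 and 586 CPM. The peptidyl-prolyl isomerase Fkbp11 measured 3.77, 15.9 and 2.09 CPM against 14.8, 17.9 and 14.6 CPM, with ccl5 replicates 1 and 3 standing apart, and its log2 fold change was -1.11 (SE 0.75) in all libraries and 0.01 in those with Y-linked reads. Its relative Fkbp7 measured 4.06, 3.97 and 4.10 CPM against 6.66, 8.64 and 3.80 CPM.

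Disulfide enzymes did not move as 1 list: 8 of 18 were above 0, with a median of -0.04. Groups were apart in 1 gene higher (P4hb, 5.56%) and 2 lower (Ero1l and Tmx1, 11.1%), against 8.27% and 7.49% of all genes. With total counts 0 were apart higher and 3 lower, against 5.45% and 9.08% of all genes. Ero1l, the oxidase that recharges disulfide isomerases, was lower in every ccl5 library, at 204, 381 and 223 CPM against 636, 674 and 390 CPM (a log2 fold change of -1.07, SE 0.34, adjusted p = 0.365 in edgeR). The nearest values were 381 in ccl5 replicate 2 and 390 in control replicate 3, and among libraries with Y-linked reads the log2 fold change was -0.57. Erp29, a thioredoxin-like folding factor, measured 402, 200 and 416 CPM against 177, 172 and 203 CPM. Its ccl5 replicate 2 lay within the controls, and its log2 fold change among libraries with Y-linked reads was 0.12. Txndc12 measured 74.4, 68.9 and 77.6 CPM against 114, 116 and 73.6 CPM.

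Lists for the entry, glycosylation and exit of ER proteins had medians of -0.10 (translocation, 9 of 23 above 0), 0.03 (glycosylation, 8 of 16) and 0.15 (ER to Golgi transport, 13 of 19), with 0 genes passing the test. Srprb, a subunit of the signal recognition particle receptor, measured 59.0, 47.0 and 66.3 CPM with CCL5, against 42.2, 38.1 and 41.8 CPM in controls, while Srp54a, of the particle itself, measured 85.1, 93.4 and 99.4 CPM against 150, 160 and 98.0 CPM. Srp9 measured 94.7, 125 and 105 CPM against 132, 133 and 138 CPM. Uggt1, which checks whether glycoproteins are folded, measured 193, 153 and 168 CPM against 125, 120 and 140 CPM. Krtcap2, of the oligosaccharyltransferase, measured 72.9, 111 and 81.0 CPM against 131, 135 and 109 CPM, and Pgm3, of hexosamine synthesis, had a log2 fold change of -0.78 (SE 0.19). Sec24d, a cargo-binding coat protein, measured 87.1, 41.9 and 78.4 CPM against 32.1, 37.0 and 36.4 CPM. Mcfd2, a cargo receptor subunit, measured 185, 199 and 187 CPM against 275, 287 and 204 CPM, and Tmed10 measured 396, 234 and 377 CPM against 246, 252 and 223 CPM. For Sec24d and Tmed10 the log2 fold changes among libraries with Y-linked reads were 0.25 and -0.04. Groups did not overlap in 12 genes of the 3 lists, against 8.27% of all genes higher and 7.49% lower. Sec61a1 and Srprb were higher and Srp9 lower in the translocation list (8.70% and 4.35%). Rpn2, Prkcsh and Uggt1 were higher and Alg5 and Pgm3 lower in the glycosylation list (18.8% and 12.5%). Sec24d and Surf4 were higher and Sec13 and Mcfd2 lower in the transport list (10.5% each way). With total counts, 1 was apart higher and 6 lower (translocation), 0 and 3 (glycosylation), and 2 and 3 (transport). All genes then stood at 5.45% higher and 9.08% lower.

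Chaperones outside the ER were measured for contrast. Of 16 cytosolic heat shock genes 8 were above 0 (median log2 fold change -0.03), and of 10 mitochondrial ones 5 (0.02). Groups were apart in 2 heat shock genes (12.5%) and 2 mitochondrial genes (20%), all higher with CCL5, against 8.27% of all genes. With total counts 0 heat shock genes were apart, and 1 mitochondrial gene was higher and 2 lower. All genes then stood at 5.45% higher and 9.08% lower. The heat-inducible pair Hspa1a and Hspa1b stood out by library: Hspa1a measured 88.9, 1.34 and 77.2 CPM with CCL5, against 3.04, 2.77 and 1.32 CPM in controls, and Hspa1b 90.4, 0.977 and 81.7 CPM against 3.11, 3.47 and 1.32 CPM. Among libraries with Y-linked reads their log2 fold changes were -0.82 and -1.42. They are near-identical copies, so counts cannot be assigned to 1 of them with certainty. Their constitutive relative Hspa8 had a log2 fold change of -0.10 (SE 0.22). Cacybp measured 77.6, 116 and 86.5 CPM against 133, 141 and 110 CPM, and the mitochondrial chaperonin Hspd1 118, 169 and 126 CPM against 200.2, 229 and 143 CPM. Dnaja3 and the mitochondrial protease subunit Clpx had log2 fold changes of 0.41 (SE 0.21) and 0.23 (SE 0.15).

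Genes that hold the ER stress response element in either form (ERSE or ERSE-II) were finally taken as a list defined by promoter sequence alone. Of 49 such genes in the promoter set, 20 were tested, 5 of them members. Canx, Dnajb11, Dnajc3, Ero1lb, Krtcap2, Pdia6 and Syvn1 are also in the related lists, so this list is not separate from those. Without the members 8 of the other 15 had a fold change above 0 and 7 below, the median log2 fold change was 0.00, and 0 passed the adjusted test. Their groups were apart in 3 genes higher and 1 lower (20% and 6.67%, against 8.27% and 7.49% of all genes). Those higher were Dnajb11, Syvn1 and Nucb1, which encodes a calcium-binding protein of the Golgi, and the one lower was Acacb, a fatty acid metabolism enzyme. Nucb1 and Acacb were named after their values were seen.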

How the data were processed

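All 6 libraries of mouse leukemia RNA were read from a table of raw read counts per gene. The counts were made by the authors with featureCounts 1.5.1, primary alignments only, on the UCSC mm10 annotation, without a strand option, per the file headers. The submitters' processing notes list TopHat, Bowtie, Trimmomatic and DESeq2 and give no version. The deposited gene length column gave the kilobases of exon used for levels between genes.

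Counts were scaled by TMM and filtered with filterByExpr (minimum count 10), leaving 12174 of 18580 genes with a count. The two-sided test was edgeR's (4.0.16, R 4.3.3) quasi-likelihood F test with treatment as the only term. P-values were adjusted over all tested genes by Benjamini-Hochberg, with calls at 0.05. Fold changes divide ccl5 by control, and SE is the absolute log2 fold change over the square root of F. The code was tested on simulated counts. Groups are called apart when all ccl5 values lie above all control values, or all lie below them. DESeq2 1.42.0 and limma 3.58.1 gave alternatives.

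The members, related lists and markers were chosen with earlier results of these data known. Named genes were all members, the 3 of smallest p in each related list, a fixed set and the nearest profiles.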

Additional observations from a re-analysis of the deposited data

How the results depend on the processing

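Of the 14 alternatives run for each result, those for related lists and non-members, and the fit to libraries with Y-linked reads, were chosen after the data were seen. No paired analysis was possible because the labels give the groups no shared replicate numbers. The count of called genes was 199 with DESeq2's Wald test, 8097 with limma-voom and 0 to 3299 in fits that left out 1 library (3299 without ccl5 replicate 2, 237 without control replicate 3), and 0 otherwise. The count of called members was 6 with limma-voom, 0 to 3 in fits leaving out 1 library, and 0 otherwise. The member median log2 fold change was -0.16 with total counts and -0.10 to 0.085 when 1 library was left out, and stayed within the replicate spread in the other alternatives.

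With total counts the list medians were -0.18 (other chaperones), -0.24 (disulfide enzymes), 0.014 (degradation), -0.28 (translocation), -0.080 (glycosylation) and -0.17 (mitochondrial). Log2 fold changes turned to -0.087 for Xbp1, -0.014 for Sdf2l1, -0.074 for Creld2, -0.071 for Atf6 and -0.18 for Canx. That setting moved the median of all genes by -0.16.

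The libraries with Y-linked reads hold a lone ccl5 library, replicate 2. With them the list medians were -0.38 (sensors), -0.69 (PERK and ATF4 targets), -0.20 (disulfide enzymes), 0.0045 (degradation), -0.044 (translocation), 0.20 (glycosylation) and -0.14 (ER to Golgi). Fold changes turned to -0.20 for Dnajb9, 0.40 for Herpud1, -0.023 for Creld2, -0.75 for Atf3, -0.072 for Hyou1, 0.012 for Fkbp11, -0.040 for Tmed10, -0.82 for Hspa1a, -1.42 for Hspa1b, -0.026 for Dnaja3, -1.72 for Ddit3, -0.37 for Atf6 and -0.15 for Canx.

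With primary transplants only, the medians were 0.11 (disulfide enzymes) and -0.0056 (translocation), and fold changes turned to 0.26 for Hspa5, -0.29 for Xbp1, -0.074 for Sdf2l1, 0.072 for Fkbp7, 0.028 for Hspd1, 0.10 for Atf4, 0.24 for Pdia6, 0.97 for Trib3 and 0.28 for Hspa8. With limma-voom the glycosylation median was -0.053 and the fold change of Canx -0.0038.

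Leaving out 1 library gave medians of -0.074 to 0.13 (disulfide enzymes), 0.14 to 0.41 (degradation), -0.15 to -0.011 (translocation) and 0.031 to 0.17 (glycosylation). Fold changes spanned 0 for Hspa5 (-0.25 to 0.038), Xbp1 (-0.17 to 0.33), Herpud1 (-0.49 to 0.062), Sdf2l1 (-0.035 to 0.27), Pdia6 (-0.21 to 0.075), Canx (-0.055 to 0.077), Trib3 (-0.75 to 0.10) and Hspa8 (-0.25 to 0.010). Fits that leave a lone library in a group assume it varies like the others. The causes were not tested.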
